A study of Mus musculus with 24 samples.

Results

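Astrocytes are the subject here, read through 10 genes of astrocyte identity and reactivity: Gfap, Vim, Lcn2, Sox9, Aldh1l1, Aqp4, Slc1a2, Slc1a3, Agt and Glul. They were named as markers of the cell type, and all 10 were found among the 21965 genes of the count table and passed the filter on low counts. The mice were OL-Ribotag animals, which carry a tamoxifen-inducible Cre meant for oligodendrocytes (OLs) and a floxed HA-tagged Rpl22, so that tamoxifen starts tagging of ribosomes in cells with Cre activity. Every group carried both alleles and received tamoxifen, also the naive controls. Spinal cord injury (SCI) was a contusion at T9 in female mice, and tissue was taken 2, 10 or 42 days later (dpi 2, dpi 10 and dpi 42), while naive cord was uninjured. The labels give the age as 10-12 weeks, but the study's methods give another age at SCI, and an older one for naive tissue, which was collected together with that of the latest time. Age and time after SCI cannot be told apart for the earlier times. The cords of 2 mice made 1 tissue pool, there were 3 pools at each time, and every pool was sequenced as a pair: total spinal cord RNA, and the RNA pulled down with the tagged ribosomes, called the OL translatome. The tag marks cells in which Cre was active when tamoxifen was given, so no astrocyte fraction was purified, and astrocyte genes are read here in whole cord and in a fraction meant for another cell type.

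Astrocytes clear glutamate and potassium from around neurons, move water at their endfeet, couple through gap junctions and supply OLs and neurons with metabolites. After damage to the cord they become reactive: intermediate filament proteins rise, some transporters are lost, and scar-forming astrocytes border the lesion. Gfap and Vim encode intermediate filaments, and Lcn2 encodes lipocalin 2, a secreted iron-siderophore carrier that reactive astrocytes and other cells make. Sox9 is a transcription factor of astrocytes and Aldh1l1 a folate enzyme. Aqp4 is the water channel of endfeet, Slc1a2 (GLT-1) and Slc1a3 (GLAST) are glutamate transporters, Agt is angiotensinogen, and Glul is glutamine synthetase, which OLs also express.

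On GRCm38 the filament genes lie at chr11:102887336-102900912 (Gfap, minus strand) and chr2:13573927-13582826 (Vim, plus), and Lcn2 lies at chr2:32384633-32388252 (minus). Sox9 lies at chr11:112782224-112787760 (plus) and Aldh1l1 at chr6:90486427-90600203 (plus). The transporters lie at chr2:102658659-102790784 (Slc1a2, plus) and chr15:8634124-8710764 (Slc1a3, minus), Agt at chr8:124556534-124569706 (minus), Glul at chr1:153899944-153909723 (plus), and Aqp4 on chromosome 18. Exons of Aldh1l1, Slc1a2 and Glul overlap an antisense gene model, and reads of such a pair cannot be told apart unless the counting used strand. Those of Aldh1l1 and Glul also overlap a gene model on the same strand, which strand cannot separate.

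Depth was similar in all libraries, with 25840127 to 29050061 counts in total RNA and 29075211 to 32987841 in the OL translatome. Levels are CPM, read counts scaled to the library total after TMM correction. The TMM factors were 0.742 to 0.899 in OL libraries and 1.10 to 1.29 in total RNA. Against library sizes alone, this raised OL levels relative to total RNA. Whether an OL to total RNA ratio near 1 lies above or below 1 thus depends on the scaling. Libraries are named by their numbers, odd for total RNA and even for OL, so that libraries 1 and 2 come from pool 1. In the labels of libraries 19 and 20 of dpi 42, the titles and descriptions name different kinds of RNA, and the description, which the column names follow, was used. Libraries 9 and 10, both from pool 5 of dpi 2, held 2604 and 2414 counts on 4 Y-linked genes against 0 to 13 in the 22 other libraries, although the tissue is labelled female. Without both of them, the call of Slc1a3 in total RNA on dpi 2 was lost (log2 fold change -1.02), no other call against naive was lost, and Lcn2 was called lower in OL on dpi 10 than on dpi 2. OL markers were in place: 8 OL genes such as Mbp and Mog summed to 96315 to 157866 CPM in the OL libraries and 19318 to 27881 CPM in total RNA. A gene was called where q, the Benjamini-Hochberg adjusted p of edgeR's quasi-likelihood test over 17167 genes, was under 0.05.

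Per kilobase of exon, the order of the 10 genes in naive total RNA ran from Glul, at 584 ± 38.4 CPM per kb (SD, n = 3), through Gfap (373 ± 113), Slc1a2 (198 ± 7.25), Agt (143 ± 6.01) and Aqp4 (105 ± 10.3) to Slc1a3 (18.3 ± 3.54) and Aldh1l1 (15.4 ± 1.05). Sox9 (7.57 ± 1.2) and Vim (7.38 ± 1.12) came next, and Lcn2 was lowest at 1.02 ± 1.22. The spreads overlapped for Slc1a3 and Aldh1l1 and for Sox9 and Vim. On dpi 2 Gfap, at 1081 ± 56.7 CPM per kb, stood above Glul (402 ± 55.9), and Vim (211 ± 22.2) had moved to the third place.

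**Figure D1:**
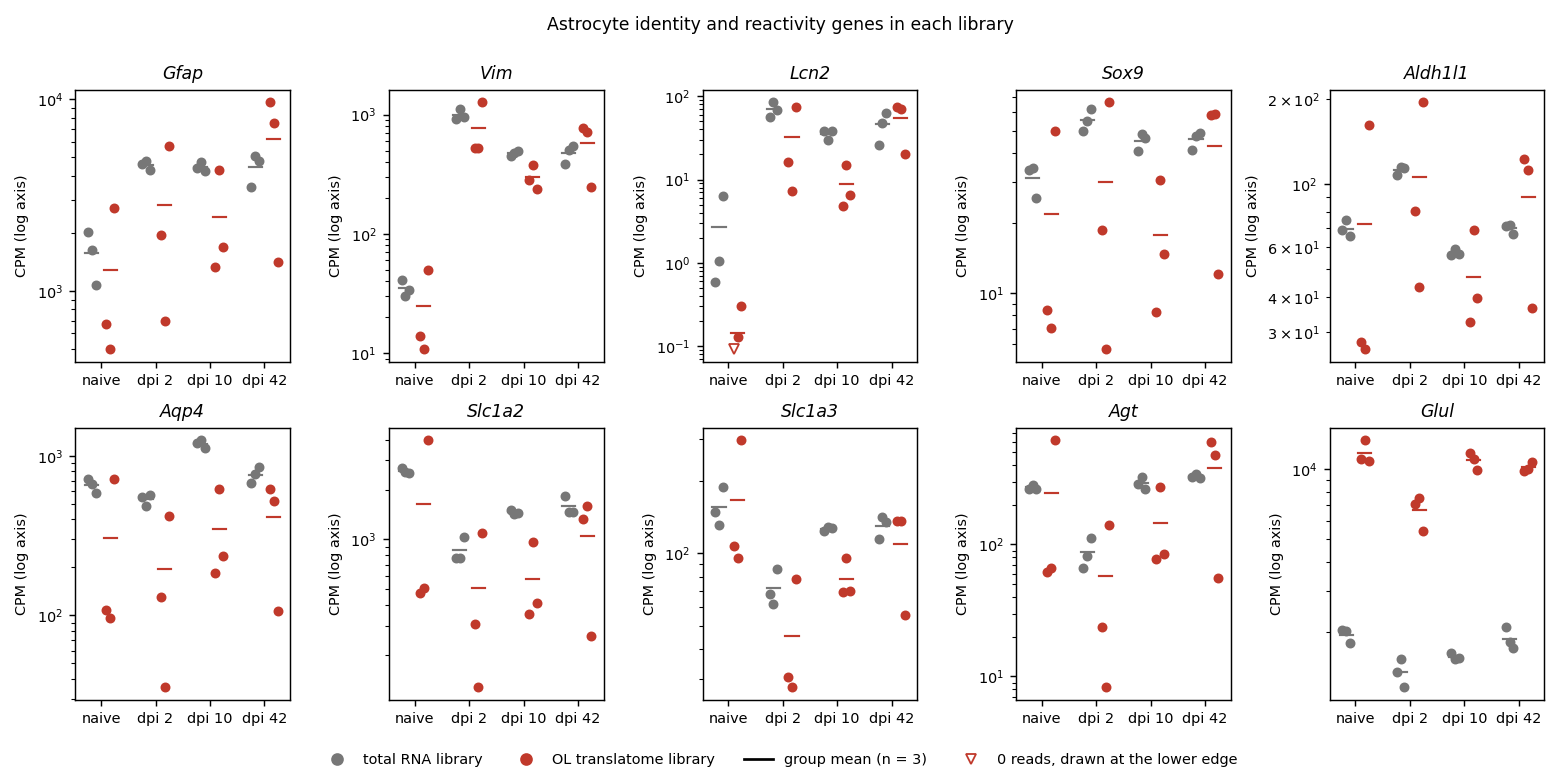
TMM-scaled CPM (vertical log axis) of the 10 genes in each of the 24 libraries by time (horizontal axis), grey for total RNA and red for the OL translatome, with the mean of each group of 3 as a line and a library with 0 reads as an open triangle at the lower edge. Grey points lie close together in each group, while 1 or 2 red points of each group stand far from the others for most genes, such as naive Slc1a2 at 472, 506 and 3961 CPM.

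In the OL translatome the astrocyte genes differed several-fold between libraries of the same group. Slc1a2 in naive OL libraries was at 472, 506 and 3961 CPM in libraries 2, 4 and 6, while total RNA of the same pools gave 2710.4, 2562 and 2533 CPM. Library 6 was the high one, above total RNA, and libraries 2 and 4 were far below it. Agt gave 62.0, 66.6 and 614 CPM in the same OL libraries and 263, 284 and 265 CPM in total RNA. Aqp4 gave 108, 96.5 and 717 CPM in OL and 714, 666 and 587 CPM in total RNA. Again only library 6 reached the level of total RNA.

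The same library stood apart for the other genes. Aldh1l1 was at 27.8, 26.1 and 163 CPM in naive OL libraries 2, 4 and 6 and at 68.7, 74.8 and 65.4 CPM in total RNA. Sox9 was at 8.40, 7.06 and 49.9 CPM in OL against 33.9, 34.5 and 25.6 CPM in total RNA. Slc1a3 was at 108, 96.0 and 295 CPM in OL against 149, 131 and 189.7 CPM in total RNA. Over the 8 genes without Glul and Lcn2, library 6 was 2.90 to 9.55 times the mean of libraries 2 and 4 (median 6.25). Glul, with 11084, 13288 and 10846 CPM, did not share this, and library 6 was its lowest value.

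After SCI single libraries differed in the same way. On dpi 2, library 12 was 2.43 to 8.78 times the mean of libraries 8 and 10 over the 8 genes (median 4.68). On dpi 10, library 16 was 1.38 to 3.36 times the mean of libraries 14 and 18 (median 2.59). On dpi 42 libraries 20 and 22 were both high, and their mean was 2.45 to 9.61 times library 24 (median 5.12). Within OL groups the highest library was a median of 6.65, 8.41, 2.96 and 5.36 times the lowest in naive cord and on dpi 2, 10 and 42. Within total RNA groups these medians were 1.28, 1.23, 1.11 and 1.24, so the spread of total RNA was small at each time.

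**Figure D2:**
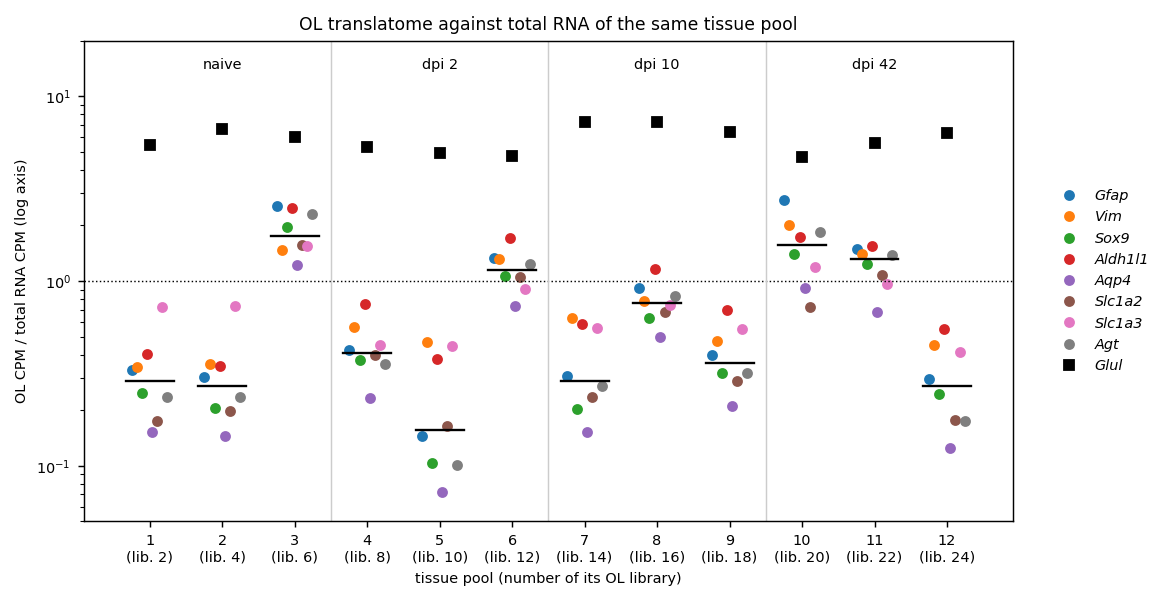
Ratio of OL to total RNA CPM (vertical log axis) of 9 genes in each tissue pool (horizontal axis, with the number of its OL library), with the median of the 8 genes other than Glul and Lcn2 as a line; the dotted line marks a ratio of 1. With TMM scaling the median ratio is 1.76 in pool 3, 1.16 in pool 6 and 1.57 and 1.31 in pools 10 and 11. It is 0.155 to 0.763 in the 8 other pools, while Glul stays between 4.71 and 7.29.

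Whether these genes are OL enriched, that is higher in the OL translatome than in total RNA of the same groups, rested on such libraries for most of the 10 genes, but not for Glul. Glul was OL enriched at each time, with log2 fold changes of 2.6 ± 0.13 (SE, q = 1.11e-12) in naive cord, 2.32 ± 0.13 on dpi 2 (q = 9.59e-12), 2.81 ± 0.13 on dpi 10 (q = 6.45e-13) and 2.45 ± 0.13 on dpi 42 (q = 3.52e-12). It was higher in OL in all 12 pools, by 4.71 to 7.29 times. For the 8 genes other than Glul and Lcn2, the OL to total RNA ratio within a pool had a median of 0.289 and 0.269 in naive pools 1 and 2 and of 1.76 in pool 3. With TMM scaling all 8 genes were above 1 in pool 3, and none was in pools 1 and 2.

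Of the 10 genes, 2 were called in the naive comparison, Glul up and Lcn2 down, where 55.5% of all tested genes were called in either direction. Lcn2 had 0, 3 and 8 reads in naive OL libraries 2, 4 and 6 and 18, 33 and 200 reads in total RNA libraries 1, 3 and 5. Its log2 fold change was -4.13 ± 1.22 (q = 0.00633). This call was lost without total RNA library 5, where the log2 fold change was -2.44, and without both libraries of pool 3, at -3.63. OL library 6 was singled out after its values were seen. Without it, 7 of the 10 genes were called (57.7% of all tested genes): Glul up, and Lcn2, Sox9, Slc1a2, Aqp4, Vim and Aldh1l1 down. Aldh1l1 turned from 0.05 to -1.21, Slc1a2 went from -0.66 to -2.25, and Aqp4 from -1.09 to -2.52.

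**Figure D3:**
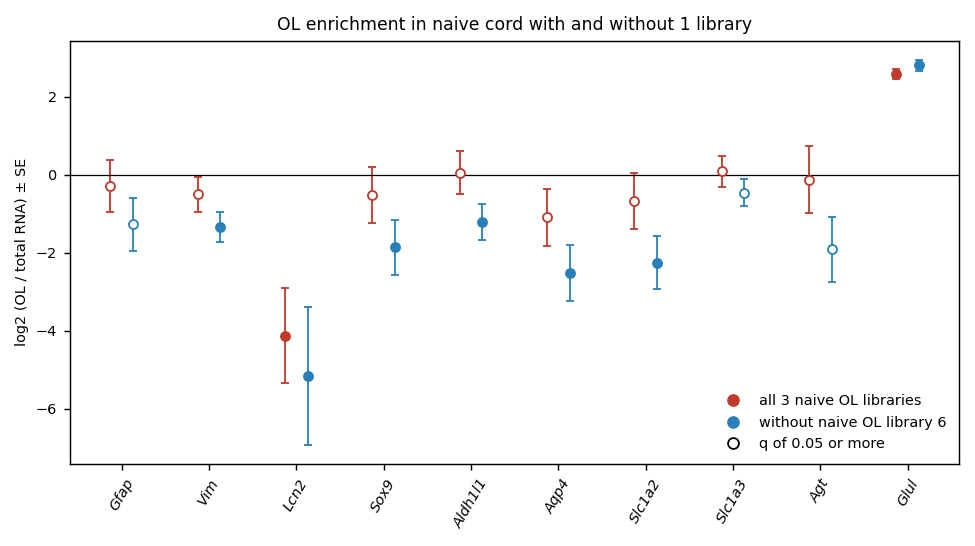
Log2 fold change of OL over total RNA in naive cord with its SE (vertical axis) for the 10 genes (horizontal axis), from all 3 naive OL libraries in red and without library 6 in blue; filled points have q under 0.05. Leaving out library 6 lowers the 9 other genes, takes the number called from 2 to 7, and puts Glul at 2.81.

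On dpi 2 Glul alone was called among the 10 genes, against 53.6% of all tested genes. With the tissue pool as a block there were 3, as Aqp4 (-2.10) and Slc1a3 (-0.82) were called lower in OL. Gfap, for example, was at 1956, 695 and 5736 CPM in OL libraries 8, 10 and 12 and at 4622, 4763 and 4297 CPM in total RNA libraries 7, 9 and 11. With TMM scaling library 12 lay above total RNA and the other OL libraries below it. Library 12 was singled out after its values were seen. Without it, 8 of the 10 genes were called (54.7% of all tested genes). Glul was up, and Lcn2, Sox9, Slc1a2, Slc1a3, Gfap, Aqp4 and Agt were down. Gfap then went from -0.71 to -1.82, and Agt from -0.60 to -2.49.

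Dpi 10 had the narrowest spread between OL libraries, and 3 genes were called, against 54.0% of all tested genes. Glul was up, Lcn2 was down with a log2 fold change of -2.03 ± 0.75 (q = 0.0266), and Aqp4 was down with -1.78 ± 0.75 (q = 0.0499). The q of Aqp4 was just under the threshold, and the call was lost in 17 of the 24 fits that left out 1 library, with log2 fold changes of -1.82 to -1.44 in those fits, and also without both libraries 19 and 20. For Lcn2 it was lost without OL library 14 or 18 or total RNA library 13 or 17, at -1.98 to -1.70. On dpi 42 Glul was again the only gene called, against 53.8% of all tested genes, and libraries 20 and 22 on one side and library 24 on the other gave median ratios of 1.57, 1.31 and 0.270.

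Markers of other cell types were read beside these differences. The 30 other astrocyte identity genes, among them Gja1, Gjb6, Aldoc and Fgfr3, were each highest in library 6 among naive OL libraries, and their sum was 28983 CPM there against a mean of 7397 CPM in libraries 2 and 4, or 3.92 times. Their summed level over the 12 OL libraries was high in the same libraries as the 10 genes, with 13194 CPM in library 12, 10447 CPM in library 16 and 16291 and 17057 CPM in libraries 20 and 22, against 5674 to 7567 CPM in the 7 others. In total RNA the sum was 7335 to 14458 CPM. The list holds Kcnj10 (2628 to 3579 CPM in naive OL libraries) and Hepacam (862 to 1001 CPM). Both were OL enriched, so the sum in OL libraries is not a measure of astrocyte RNA alone. The list of 8 OL genes moved the other way in naive cord, with 117048 CPM in library 6 and 0.742 times the mean of libraries 2 and 4. On dpi 2 it was also lowest in library 12, at 96315 CPM against 109941 and 122475 CPM. On dpi 42 libraries 20 and 22, at 103467 and 114504 CPM, lay below library 24 at 137141 CPM. On dpi 10 library 16, at 142126 CPM, lay between libraries 14 and 18 at 139450 and 144852 CPM.

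Of the other lists, OPC markers were also highest in library 6 among naive OL libraries, for 6 of 6 genes. Their sum was 34.3, 27 and 70.5 CPM in libraries 2, 4 and 6, so that library 6 was 2.30 times the mean of the others. On dpi 2 it was highest in library 12 (68.5 CPM, against 42.5 and 31.3 CPM), on dpi 10 in library 16 (74.4, against 46.4 and 57.4 CPM) and on dpi 42 in libraries 20 and 22 (82.3 and 71.0, against 50.9 CPM). These are the libraries that were high for the astrocyte list. Ependymal markers were also highest in libraries 6, 12 and 16 and lowest in library 24 within their groups, with 3 of 6 genes highest in library 6. Their sum was 39.4, 45.0 and 52.6 CPM in libraries 2, 4 and 6 and 40.8, 45.5 and 54.0 CPM in 8, 10 and 12. It was 98.4, 110 and 99.3 CPM in libraries 14, 16 and 18 and 163, 115 and 99.1 CPM in 20, 22 and 24. Fibroblast and pericyte markers were 1.67 times as high in library 6, at 95.6 CPM, with 6 of 7 genes highest there. The part of these lists in the levels of the 10 genes was not tested.

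Schwann cell markers were also highest in library 6 among naive OL libraries, but after SCI their order was another. Their 5 genes, among them Prx and Pmp2, summed to 7.69, 9.52 and 702 CPM in naive OL libraries 2, 4 and 6, and library 6 was 81.6 times the mean of the others. Total RNA of the same pool was also high, at 237 CPM against 45.0 and 43.8 CPM. On dpi 2 the highest sum was in library 10 at 707 CPM, with 345 CPM in library 12, and on dpi 42 libraries 20, 22 and 24 were at 1307, 1268 and 1452 CPM. Pmp2 was at 0 in 2 OL libraries and 1 total RNA library. The part of Schwann cell RNA in the levels of the 10 genes was not tested.

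Markers of neurons, microglia, endothelium, OPCs and fibroblasts were lower in the OL translatome than in total RNA of the same time, and those of ependymal cells were not. The 8 neuron markers summed to 197 to 543 CPM in OL libraries against 3516 to 9556 CPM in total RNA, and the 8 microglia and macrophage markers to 13.9 to 194 against 216 to 3005 CPM. The 6 endothelial markers summed to 6.13 to 21.3 against 117 to 308 CPM, and the 6 OPC markers to 27 to 82.3 against 231 to 402 CPM. The 7 fibroblast and pericyte markers summed to 51.3 to 615 against 131 to 2499.8 CPM. Ependymal markers (6 genes) were at 39.4 to 163 CPM in OL and 25.8 to 82.2 CPM in total RNA, with Tmem212 at 0 in 10 of 12 OL libraries. Neutrophil markers (8 genes) summed to at most 6.20 CPM in OL and 43.0 CPM in total RNA, with Ly6g at 0 in all 12 OL libraries and Camp in 10.

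**Figure D4:**
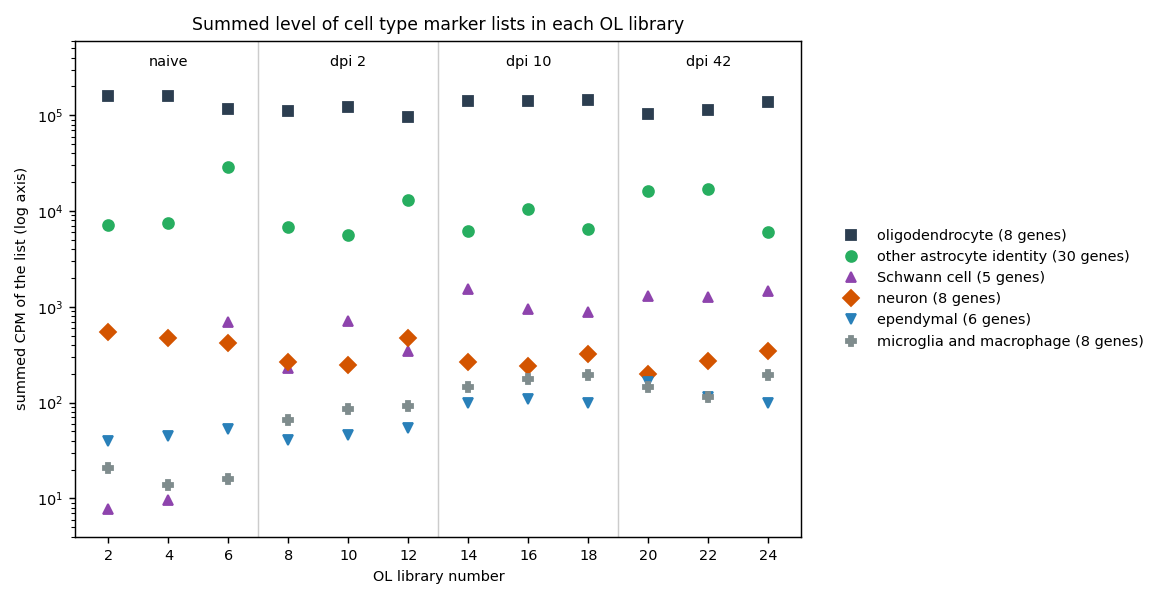
Summed CPM (vertical log axis) of 6 cell type marker lists in each of the 12 OL libraries (horizontal axis, library number). The astrocyte list, which also holds OL enriched genes, is highest in library 6 (28983 CPM) and raised in libraries 12, 16, 20 and 22. OL markers stay between 96315 and 157866 CPM, and Schwann cell markers range from 7.69 to 1554 CPM.

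The genes whose pattern over the OL libraries was most like the astrocyte genes were sought among 9190 others with a mean log2 CPM over 3. The 8 with the highest Pearson r to the mean of Aldh1l1, Aqp4, Slc1a2, Slc1a3 and Agt, over 12 libraries, were Gja1 (0.993), Pla2g7 (0.986), Gpm6a (0.985), Slc41a1 (0.985), Cyp2d22 (0.985), Igdcc4 (0.983), Adcyap1r1 (0.983) and Hey1 (0.977). Gja1 encodes connexin 43 of astrocyte gap junctions, and Gja1 and Pla2g7 were also in the list of other astrocyte identity genes. Of the 5 remaining members, Sox9 had an r of 0.88 and Gfap of 0.78, whereas Glul (0.10), Vim (0.12) and Lcn2 (0.19) had low values. The r spans all times, so the rises of Vim and Lcn2 after SCI enter it. Within groups Vim was 4.01, 2.43 and 1.44 times the mean of the others in libraries 6, 12 and 16, and 0.337 times in 24. Lcn2, near the detection limit in naive cord, was 6.28, 2.67 and 0.278 times in libraries 12, 16 and 24. Glul was 0.890, 0.745, 1.02 and 1.08 times in libraries 6, 12, 16 and 24. These values describe libraries that share tissue, purification and scaling, and they carry no test.

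Reactivity genes rose after SCI in both kinds of RNA. Vim rose at all 3 times, by 13.6 to 28.6 times in total RNA and 12.0 to 30.9 times in the OL translatome, and Lcn2 rose at all 3 times as well. The OL changes of Vim were larger without naive OL library 6, as given with its values. Gfap was higher in every total RNA library after SCI than in any naive one, but in OL libraries it overlapped the naive range at each time. In bulk tissue, more cells of a type and more RNA per cell cannot be told apart.

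Vim was at 40.8, 30.4 and 33.8 CPM in naive total RNA libraries 1, 3 and 5. On dpi 2 it was at 923, 1121 and 962 CPM, on dpi 10 at 452, 481 and 497 CPM and on dpi 42 at 383, 508 and 551 CPM. No SCI library overlapped the naive ones. The log2 changes were 4.84 ± 0.52 (q = 3.42e-07), 3.77 ± 0.49 (q = 5.92e-06) and 3.78 ± 0.49 (q = 1.15e-05).

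In the OL translatome Vim was at 14, 10.7 and 49.7 CPM in naive libraries 2, 4 and 6. On dpi 2 it was at 521, 523 and 1266 CPM, on dpi 10 at 286, 376 and 236 CPM and on dpi 42 at 766, 714 and 249 CPM. All SCI libraries lay above all naive ones, the low library 24 of dpi 42 included. The log2 changes were 4.95 ± 0.52 (q = 2.27e-07), 3.59 ± 0.49 (q = 2.47e-05) and 4.53 ± 0.51 (q = 1.68e-06). Without naive OL library 6, the highest of the naive OL libraries, they were 5.89, 4.59 and 5.47.

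Lcn2 started near the detection limit, with 0, 0.127 and 0.306 CPM in naive OL libraries and 0.590, 1.06 and 6.34 CPM in naive total RNA. In total RNA it was at 57.1, 84.4 and 68.6 CPM on dpi 2, 38.2, 30.1 and 38.8 CPM on dpi 10 and 26.3, 48.2 and 63.5 CPM on dpi 42. In OL it was at 16.1, 7.29 and 73.6 CPM on dpi 2, 4.78, 15 and 6.43 CPM on dpi 10 and 74.8, 69.7 and 20.1 CPM on dpi 42. No SCI library overlapped the naive ones in either kind of RNA, and among OL libraries Lcn2 was highest in 12, 20 and 22.

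Lcn2 had log2 changes in total RNA of 4.71 ± 0.85 (q = 1.41e-04), 3.74 ± 0.81 (q = 0.00119) and 4.10 ± 0.83 (q = 0.00103) on dpi 2, 10 and 42. The OL changes were 7.72 ± 1.15 (q = 1.58e-05), 5.84 ± 1.15 (q = 0.00113) and 8.49 ± 1.16 (q = 1.17e-05). The OL changes were 8.84, 7.02 and 9.60 without naive OL library 6. Their size rests on the few naive reads given above and on the prior count of the fit. No call of Lcn2 or Vim against naive was lost under any alternative run. Beside them, neutrophil markers in total RNA summed to 1.36 to 5.71 CPM in naive cord and 19.5 to 42.4, 21.9 to 43.0 and 19.7 to 26.1 CPM on dpi 2, 10 and 42. Microglia and macrophage markers went from 216 to 265 CPM in naive cord to 1181 to 1382, 2397 to 3005 and 1634 to 2253 CPM. Fibroblast and pericyte markers went from 131 to 157 CPM to 543 to 988, 2226 to 2499.8 and 576 to 885 CPM. Their part in the total RNA changes of Lcn2 and Vim was not tested.

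Gfap was at 2019, 1629.7 and 1067 CPM in naive total RNA libraries 1, 3 and 5. It was at 4622, 4763 and 4297 CPM on dpi 2, 4356, 4684 and 4213 CPM on dpi 10 and 3503, 5082 and 4770.4 CPM on dpi 42. All 9 SCI libraries were above the naive ones. The log2 changes of 1.54 ± 0.68 (q = 0.085), 1.49 ± 0.68 (q = 0.105) and 1.5 ± 0.68 (q = 0.127) were not called in the model of 24 libraries, in which the OL libraries share the estimate of the spread.

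In the OL translatome Gfap was at 668, 495 and 2713 CPM in naive cord and at 1956, 695 and 5736 CPM on dpi 2. It was at 1339.5, 4284 and 1687 CPM on dpi 10 and at 9632, 7551 and 1407 CPM on dpi 42. Libraries 12, 16, 20 and 22 were high and library 24 lay below naive library 6. Gfap rose by 2.26 ± 0.70 on dpi 42 (q = 0.0163), while the log2 changes of 1.11 ± 0.68 on dpi 2 (q = 0.211) and 0.92 ± 0.67 on dpi 10 (q = 0.396) were not called. The call on dpi 42 was lost without library 2, 4 or 20, at 1.88, 1.80 and 1.73, and without both libraries 19 and 20, at 1.79. It was also lost in fits of the OL libraries alone and of only the groups compared.

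**Figure D5:**
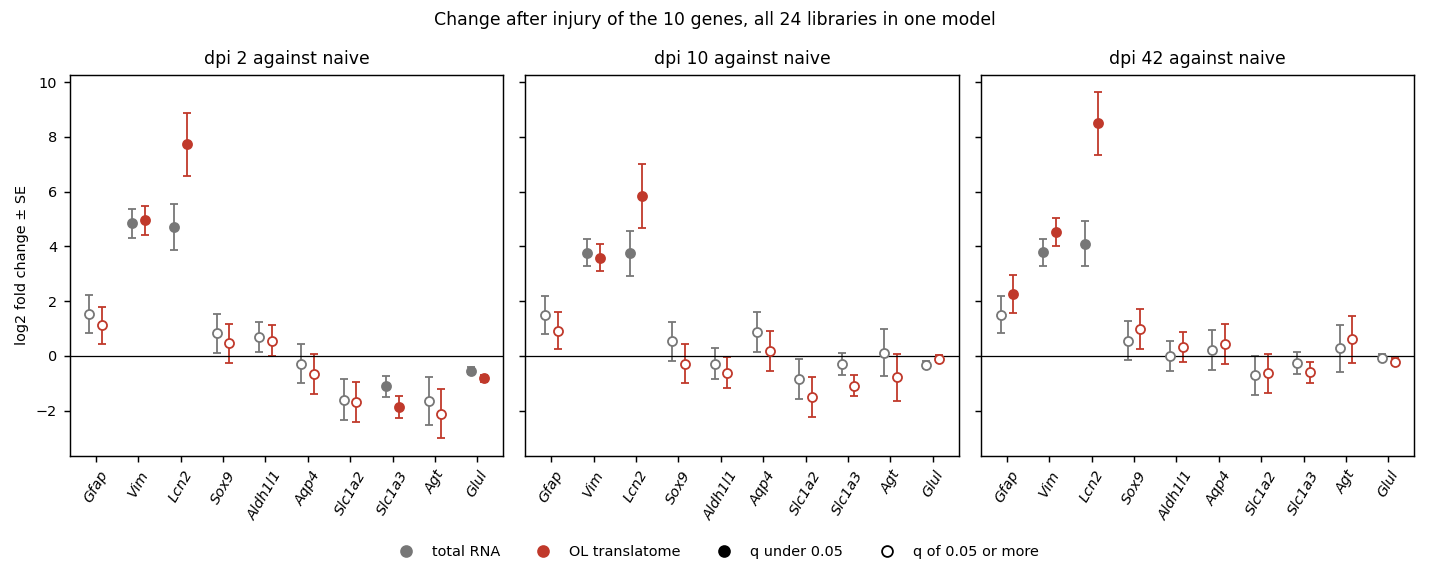
Log2 fold change against naive with its SE (vertical axis) for the 10 genes (horizontal axis) on dpi 2, 10 and 42, grey for total RNA and red for the OL translatome; filled points have q under 0.05. Vim and Lcn2 stand far above 0 at each time in both kinds of RNA, and Slc1a3 and Glul lie below 0 on dpi 2.

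Levels of identity genes lay on different sides of the naive libraries in total RNA on dpi 2. There Sox9, Aldh1l1 and Gfap were above every naive library. Slc1a2, Slc1a3, Agt, Aqp4 and Glul were below every naive library, Aqp4 by a small margin. The share of all tested genes without overlap was not counted, so this describes levels only. In the model of 24 libraries 4 of the 10 genes were called in total RNA on dpi 2, Vim and Lcn2 up and Slc1a3 and Glul down, against 37.2% of all tested genes. On dpi 10 and dpi 42 these were 2 genes each, Vim and Lcn2, against 32.1% and 22.5%.

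The model of 24 libraries takes the spread of each gene from both kinds of RNA. A fit of the 12 total RNA libraries alone, chosen after seeing the data, called 9 of the 10 genes on dpi 2 (50.7% of the genes tested), 6 on dpi 10 (44.7%) and 7 on dpi 42 (36.3%). On dpi 2 these were Gfap, Vim, Lcn2, Sox9 and Aldh1l1 up and Slc1a2, Slc1a3, Glul and Agt down, and Aqp4 was the gene not called. On dpi 10 they were Gfap, Vim, Lcn2, Sox9 and Aqp4 up and Slc1a2 down, and on dpi 42 Agt was called as well, also up. In this fit Gfap had log2 changes of 1.71 ± 0.17, 1.63 ± 0.17 and 1.62 ± 0.17 on dpi 2, 10 and 42.

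The glutamate transporters were lowest on dpi 2. Slc1a2 was at 2710.4, 2562 and 2533 CPM in naive total RNA, 773, 772 and 1035 CPM on dpi 2, 1505, 1428 and 1436 CPM on dpi 10 and 1826, 1459 and 1468 CPM on dpi 42. Naive libraries lay above all SCI libraries. The log2 changes were -1.60 ± 0.74 (q = 0.0959), -0.84 ± 0.72 (q = 0.416) and -0.72 ± 0.72 (q = 0.532), none called. In the fit of total RNA alone they were -1.43 ± 0.11, -0.69 ± 0.11 and -0.60 ± 0.11, and all of them were called.

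Slc1a3 was at 149, 131 and 189.7 CPM in naive total RNA, 68.0, 61.8 and 86.4 CPM on dpi 2, 124, 129 and 127 CPM on dpi 10 and 115, 141 and 135 CPM on dpi 42. Only the dpi 2 and dpi 10 libraries lay below all naive ones. Slc1a3 fell by 1.12 ± 0.39 on the log2 scale on dpi 2 (q = 0.0298), and the log2 changes on dpi 10 and dpi 42 were -0.30 ± 0.39 (q = 0.609) and -0.26 ± 0.39 (q = 0.695). The dpi 2 call was lost in 11 of the 24 fits that left out 1 library, with log2 changes between -1.15 and -0.96. It was also lost with scaling by library sizes alone (-0.90) and with a total RNA library as the TMM reference (-0.98).

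In the OL translatome Slc1a3 was at 108, 96.0 and 295 CPM in naive cord and at 30.5, 27.7 and 78.0 CPM on dpi 2. It was at 69.0, 96.0 and 69.7 CPM on dpi 10 and 136, 136 and 55.6 CPM on dpi 42. All dpi 2 libraries lay below all naive libraries. Slc1a3 fell by 1.87 ± 0.40 on the log2 scale on dpi 2 (q = 8.34e-04), and the changes of -1.09 ± 0.39 on dpi 10 (q = 0.0609) and -0.60 ± 0.39 on dpi 42 (q = 0.257) were not called. The dpi 2 call was lost in a fit of only the groups compared, at -1.83.

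Glul did not share the wide spread of the other genes in OL libraries. It was at 11084, 13288 and 10846 CPM in naive OL libraries, 7116, 7479 and 5436 CPM on dpi 2, 11779.8, 11074 and 9914 CPM on dpi 10 and 9816, 9991 and 10715 CPM on dpi 42. The dpi 2 libraries lay below all others, and those of dpi 42 just below the naive ones. Glul fell by 0.81 ± 0.13 on the log2 scale on dpi 2 (q = 2.77e-05), and the changes on dpi 10 and dpi 42 were -0.10 ± 0.13 (q = 0.651) and -0.21 ± 0.13 (q = 0.227).

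In total RNA Glul was at 2025, 2004 and 1794 CPM in naive cord, 1337, 1522 and 1150.3 CPM on dpi 2, 1623, 1519.8 and 1537 CPM on dpi 10 and 2084, 1797 and 1699 CPM on dpi 42. Libraries of dpi 2 and dpi 10 were below all naive ones. Glul fell by 0.54 ± 0.13 on dpi 2 (q = 0.00182), and the change on dpi 10 was -0.31 ± 0.13 (q = 0.0617).

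Aqp4 and Agt, genes of endfoot water transport and of angiotensin precursor, were lowest in total RNA on dpi 2. Aqp4 was at 714, 666 and 587 CPM in naive total RNA, 556, 488 and 573 CPM on dpi 2, 1209.7, 1251 and 1117 CPM on dpi 10 and 674, 765 and 853 CPM on dpi 42. The dpi 10 libraries lay above all others, and those of dpi 2 below the naive ones by a small margin. The log2 changes of -0.28 ± 0.73, 0.86 ± 0.73 and 0.22 ± 0.73 on dpi 2, 10 and 42 were not called (q = 0.807, 0.406 and 0.881). In the fit of total RNA alone those of dpi 10 (1.01 ± 0.10) and dpi 42 (0.34 ± 0.10) were.

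Agt was at 263, 284 and 265 CPM in naive total RNA, 66.7, 82.0 and 113 CPM on dpi 2, 287, 327 and 265 CPM on dpi 10 and 326, 342 and 318 CPM on dpi 42. It was below all naive libraries on dpi 2 and above all on dpi 42. The log2 change on dpi 2 was -1.64 ± 0.88 (q = 0.157). With total RNA alone it was -1.47 ± 0.14, and called.

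In OL libraries these genes overlapped the naive range at each time. Aqp4 was at 129.8, 35.2 and 420.2 CPM on dpi 2, 185, 621 and 236 CPM on dpi 10 and 618, 522 and 106 CPM on dpi 42. Agt was at 23.7, 8.26 and 140.2 CPM on dpi 2, 77.4, 271 and 84.2 CPM on dpi 10 and 599, 475 and 55.9 CPM on dpi 42. The libraries that were high for Gfap were also high here, and the log2 changes of Agt were -2.11 ± 0.90 (q = 0.0699), -0.78 ± 0.86 (q = 0.611) and 0.60 ± 0.86 (q = 0.661). They rest on naive OL library 6: without it the changes of Agt were -0.23, 1.16 and 2.47, and the last was called. Those of Aqp4 were 0.86, 1.76 and 1.95 without it, and the last was again called.

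Sox9 and Aldh1l1 differed in their course in total RNA. Sox9 was at 33.9, 34.5 and 25.6 CPM in naive cord, 49.9, 55.1 and 62.0 CPM on dpi 2, 40.7, 48.3 and 46.3 CPM on dpi 10 and 41.4, 47.7 and 48.9 CPM on dpi 42. Every SCI library lay above the naive ones. Aldh1l1 was at 68.7, 74.8 and 65.4 CPM in naive cord, 107, 115 and 114 CPM on dpi 2, 56.1, 59.3 and 56.6 CPM on dpi 10 and 71.0, 72.0 and 66.5 CPM on dpi 42. It was above all naive libraries on dpi 2 and below them all on dpi 10. In the model of 24 libraries the log2 changes on dpi 2 were 0.83 ± 0.71 for Sox9 (q = 0.386) and 0.69 ± 0.56 for Aldh1l1 (q = 0.36), and no change of either gene against naive was called. With total RNA alone Sox9 was called at each time, at 1.00, 0.67 and 0.67, and Aldh1l1 on dpi 2, at 0.86.

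In OL libraries Sox9 was at 18.7, 5.71 and 66.2 CPM on dpi 2, 8.27, 30.6 and 14.7 CPM on dpi 10 and 58.3, 58.9 and 12.0 CPM on dpi 42. Aldh1l1 was at 80.5, 43.3 and 195 CPM on dpi 2, 32.7, 68.9 and 39.5 CPM on dpi 10 and 123, 112 and 36.6 CPM on dpi 42. Slc1a2 was at 306, 127 and 1092 CPM on dpi 2, 354, 966 and 414 CPM on dpi 10 and 1321, 1582 and 260.3 CPM on dpi 42. All 3 genes overlapped the naive OL range at each time, and none of their OL changes was called. Without naive OL library 6 the change of Slc1a2 was -0.01, 0.24 and 1.04 on dpi 2, 10 and 42, and those of Sox9 and Aldh1l1 on dpi 10 were 1.2 and 0.80. Signs turned without that library for 7 of the 30 OL changes of the 10 genes against naive.

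Counted together, 4 of the 10 genes were called in the OL translatome on dpi 2 (Vim and Lcn2 up, Slc1a3 and Glul down), against 38.4% of all tested genes. On dpi 10 there were 2 (Vim and Lcn2), against 18.2%, and on dpi 42 there were 3 (Gfap, Vim and Lcn2), against 33.1%. Without naive OL library 6, singled out after its high values were seen, these counts were 7, 3 and 7, against 39.1%, 19.7% and 36.0%. Leaving it out lowers the naive level of most of these genes, while the high OL libraries after SCI stay in. The calls without it thus show how far results rest on that library and are not read as changes after SCI. On dpi 2 Sox9, Gfap and Aldh1l1 were then called up, at 1.90, 2.20 and 1.91. On dpi 42 Sox9, Aqp4, Aldh1l1 and Agt were called up besides Gfap, Vim and Lcn2, with Sox9 at 2.40 and Agt at 2.47. Without dpi 2 OL library 12, Slc1a2 and Agt were called down on dpi 2, at -2.98 and -4.00.

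None of the 10 genes was called in differential OL enrichment, the difference between the change in OL and that in total RNA, by edgeR at any time. The background was 14.1% on dpi 2, 7.65% on dpi 10 and 7.84% on dpi 42. Lcn2 came nearest, with 3.01 ± 1.48 on dpi 2 (q = 0.203), 2.10 ± 1.52 on dpi 10 (q = 0.506) and 4.38 ± 1.44 on dpi 42 (q = 0.0652). Its dpi 42 value had an unadjusted p of 0.00624, the only one under 0.05 among the 30 values, and DESeq2 called it, while it called 0 of the 10 on dpi 2 and dpi 10. For the 9 others the values ran from -0.89 for Agt on dpi 10 to 0.76 for Gfap on dpi 42, each with an SE of 0.18 to 1.22. Single libraries moved these results too. Without naive OL library 6, Glul was called down on dpi 2 (-0.54) and Vim up on dpi 42 (1.59), and without dpi 2 OL library 12, Slc1a3 was called down on dpi 2 (-1.60) and Lcn2 up on dpi 42 (4.22).

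Between dpi 2 and dpi 10, OL levels of Glul rose by 0.71 ± 0.13 on the log2 scale (q = 3.03e-04) and those of Vim fell by 1.36 ± 0.45 (q = 0.0326), 2 genes against 22.3% of all tested genes. The Vim call was lost without OL library 12, 14 or 18, at -0.74, -1.27 and -1.16. Between dpi 10 and dpi 42 Lcn2 rose by 2.65 ± 0.76 in OL (q = 0.0384), the only gene called, against 7.18%. That call was lost without OL library 14, 18, 20 or 22, at 2.29 to 2.41, and without both libraries 19 and 20, at 2.36. Both this call and that of Vim were lost in the fit of OL libraries alone, and this one also in a fit of only the groups compared.

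In total RNA no gene of the 10 was called between dpi 2 and dpi 10 (7.84% of all tested genes) or between dpi 10 and dpi 42 (0.262%) by edgeR over 24 libraries, nor by DESeq2. At an unadjusted p under 0.05 edgeR gave Vim alone between dpi 2 and dpi 10, and 0 of the 10 genes between dpi 10 and dpi 42. With total RNA alone 6 were called between dpi 2 and dpi 10, against 21.2% of the genes tested, with Slc1a2, Slc1a3, Aqp4 and Agt up and Vim and Aldh1l1 down. Their log2 changes in that fit were 0.73, 0.79, 1.12, 1.72, -1.10 and -0.99. Between dpi 10 and dpi 42 Aqp4 alone was called down, at -0.67, against 6.36%.

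Other genes of astrocyte identity, a list of 30 that were all tested, held more genes that fell than rose in total RNA on dpi 2 and dpi 10. In total RNA 1 rose and 8 fell on dpi 2, with a list median of -0.86 against -0.10 over all genes. On dpi 10 it was 1 up and 3 down (median -0.56 against -0.10), and on dpi 42 1 up and 1 down (-0.20 against -0.08). Of all tested genes 20.8%, 18.2% and 12.1% fell at these times and 16.4%, 13.9% and 10.4% rose, so on dpi 10 and dpi 42 a smaller share of the list was called down than of all genes. In the fit of the 12 total RNA libraries, chosen after seeing the data, 1, 2 and 3 genes of the list were up and 19, 17 and 10 down, with medians of -0.69, -0.42 and -0.08. Of the genes tested in that fit 50.7%, 44.7% and 36.3% were called in either direction. Id3, a regulator that keeps other transcription factors from binding DNA, was the gene that rose each time, by 1.51, 2.09 and 1.73. Kcnj10, the potassium channel Kir4.1 of astrocytes and OLs, fell each time, by 0.72, 0.61 and 0.51. On dpi 2 Etnppl fell by 2.68 and Nfia, a transcription factor of glial development, by 0.45.

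In the OL translatome Id3 was again the gene of the list that rose, by 2.53 ± 0.49 on dpi 2 (q = 2.86e-04), 2.23 ± 0.48 on dpi 10 and 3.74 ± 0.51 on dpi 42. There 9, 6 and 3 genes of the 30 fell, against 20%, 8.59% and 16.9% of all tested genes. In the fit of OL libraries alone, chosen after seeing the data, 4, 0 and 1 were down and 1 was up each time. The share of all genes is not given for that fit, so these counts describe a move between fits only. Hepacam, an adhesion molecule of astrocytes and OLs, and Kcnj10 were called down each time in the model of 24 libraries. Their log2 changes on dpi 2 were -0.77 and -0.68. With OL libraries alone neither gene was called down on dpi 10, and at most 1 of them was on dpi 42. Both were OL enriched, as was Cbs: in naive cord Hepacam had a log2 fold change of 1.81, Kcnj10 1.29 and Cbs 1.62, and these were the only 3 of the 30 that were up. Hepacam was at 862 to 1001 CPM in naive OL libraries and 255 to 276 CPM in total RNA.

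Naive OL library 6 was singled out after its values were seen. With it left out, 25 of the 30 genes were called lower in OL than in total RNA in naive cord, against 1 (Id3) with it. Of all tested genes 57.7% were called in either direction without it and 55.5% with it. The list median of this enrichment went from -0.38 to -2.00, while that of all genes went from -0.27 to -0.15. The OL changes turned as well: 4 of the 30 were then up and 4 down on dpi 2, 4 up and 2 down on dpi 10, and 11 up and 2 down on dpi 42. Of all tested genes 39.1%, 19.7% and 36.0% were then called in either direction. The list medians were 0.38, 0.18 and 1.18, against -0.88, -1.05 and -0.17 with library 6. As the high OL libraries after SCI were kept, these values without library 6 are not read as changes after SCI.

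The list of 27 other reactivity genes, all tested, rose in both kinds of RNA. In total RNA 24, 22 and 21 of them rose on dpi 2, 10 and 42 and none fell, with list medians of 3.46, 2.87 and 2.61. Of all tested genes 16.4%, 13.9% and 10.4% rose. In OL 22, 20 and 24 rose and none fell, with medians of 3.68, 2.40 and 3.12, where 18.4%, 9.62% and 16.2% of all tested genes rose. With library 6 of naive cord left out, 22, 24 and 24 rose in OL, with medians of 5.24, 3.31 and 4.14. Of all tested genes 39.1%, 19.7% and 36.0% were called in either direction in that fit. This list is not specific to astrocytes, and OLs, microglia and fibroblasts also use some of its genes.

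Serpina3n, a secreted protease inhibitor, had the smallest p of the list in both kinds of RNA. It was at 44.9 to 86.4 CPM in naive OL libraries and 7457 to 7634 CPM on dpi 2, a log2 change of 6.99 ± 0.24 (q = 5.05e-14). In total RNA it was at 51.9 to 62.2 CPM in naive cord and 1731 to 2183 CPM on dpi 2, a log2 change of 5.10 ± 0.22. Its OL libraries lay within a narrow range on dpi 2, unlike those of Gfap and Lcn2, and it was OL enriched at each time after SCI, by 1.97, 2.23 and 1.81.

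Timp1, an inhibitor of matrix proteases, rose by 8.90, 6.74 and 6.17 in total RNA and by 10.78, 7.69 and 9.32 in OL, from at most 0.115 CPM in naive OL libraries. Nes, another intermediate filament gene, rose by 4.86, 2.71 and 3.12 in OL. In differential OL enrichment Serpina3n was called up at each time, by 1.89, 2.15 and 1.72. In all, 4 genes of the 27 were up and 1 down on dpi 2, 1 up and 1 down on dpi 10, and 3 up on dpi 42. Of all tested genes 14.1%, 7.65% and 7.84% were called in either direction. Between dpi 2 and dpi 10, 14 of the 27 fell and 3 rose in OL, where 1813 of all 17167 tested genes fell and 2013 rose.

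As Vim and Lcn2 were the only 2 of the 10 genes with called rises in total RNA on dpi 2, the 250 bases before their RefSeq starts (GRCm38.p6) were searched on both strands for TTCNNNGAA (STAT), TGANTCA (AP-1), the NF-kB consensus and the palindromic NFI motif. Of 32851 promoters 7.02% held the STAT letters, 6.75% AP-1, 3.90% the NF-kB consensus and 0.0365% NFI. Lcn2 held none of them, and Vim held the NF-kB consensus once, 213 to 223 bases before its start and on the strand opposite to the gene. The stretch is shown as the one match found, and the capitals mark the match. It lies at chr2:13574078-13574107 (GRCm38.p6, plus strand, which is that of Vim). The RefSeq start lies downstream of the gene start given above, which is from GENCODE, so the stretch lies inside the span given there.
Vim: gtgatcaccaGGAAAGCCCCtgaaaggcct
A match of letters is a description and does not show binding, and their absence says nothing about these factors.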

How the data were processed

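The deposited table holds raw read counts per gene for 24 libraries. The authors checked reads with FastQC 0.10.1, aligned them with STAR to the mouse genome (mm10, GRCm38.p6), counted them per gene with HTSeq 0.10.0 and compared groups with DESeq2; the strand setting of the counting and the annotation release are not given in the sources used here. Columns were assigned to libraries by the labels. Of 21965 genes, 17167 with at least 10 summed counts were fitted with edgeR 4.0.16 (quasi-likelihood, TMM factors, 8 group means, R 4.3.3), and p-values were adjusted over all of them by Benjamini-Hochberg. The SE is the log2 fold change divided by the square root of F. CPM per kb used the union of GENCODE exons. The fit was run on counts simulated around the group means, with known changes in some genes. No single library was set apart from its group there, so that run does not cover the spread seen between OL libraries.

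The 10 genes and all gene lists were chosen with earlier results of these data known. All 10 genes were named. Of the lists of other genes, up to 3 with the smallest p in each change against naive were named, with Hepacam, Kcnj10, Id3 and Cbs followed at other times, and some members of small counts were named after their values were seen. Some details of the mouse line and of single marker genes are not reported here. Genes of similar pattern were the 8 with the highest r. Promoters were searched for called genes with the largest rises in total RNA on dpi 2.

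Libraries of 1 tissue pool share animals, as the tissue codes in the column names show. Their deviations from the group means correlated at 0.0408 to 0.137 in naive cord, 0.0879 to 0.108 on dpi 2, 0.0245 to 0.0630 on dpi 10 and -0.0109 to 0.0200 on dpi 42. Between different pools of a time these were -0.105 to 0.0502, -0.0781 to -0.0184, -0.0365 to 0.0117 and -0.0280 to 0.0253. On dpi 42 the values of the same pool lay inside the range of other pools, so these correlations cannot show the pairing there. Alternatives were DESeq2 1.42.0, RLE factors, library sizes alone, a total RNA reference for TMM, other filters, fewer groups, blocks by tissue pool or sample number, and fits without single libraries or pools. A limit of 3 reads, which covers counting error only, corresponds to 0.0909 to 0.116 CPM before TMM scaling.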

Additional observations from a re-analysis of the deposited data

Results flagged for a closer look

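In total RNA 3 genes lay on opposite sides of naive at different times, with all 3 libraries above every naive library at one time and below at the other. The share of all tested genes that did so was not counted, so this number is a description only. The log2 change of Aldh1l1 was lower on dpi 10 than on dpi 2 by a difference of -0.97, and that of Aqp4 was higher on dpi 10 than on dpi 2 by 1.15. Compared directly between dpi 10 and dpi 2 over 24 libraries, neither difference passed (edgeR quasi-likelihood test, q = 0.361 for Aldh1l1 and 0.422 for Aqp4). In the fit of the 12 total RNA libraries, chosen after seeing the data, both were called, at -0.99 and 1.12. The change of Agt was higher on dpi 42 than on dpi 2 by 1.91, and this difference was not tested. Groups of 3 libraries are too small for a test of single outlying libraries.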

How the results depend on the processing

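Of 170 comparisons of single genes 27 were called, of which 19 kept the call under every alternative and 8 lost it under at least 1, as given with the results. Of 6010 alternative values 240 had the opposite sign, 238 of them not called with or without the alternative. Without naive OL library 6, 7 of 30 OL changes against naive turned sign, as given with the results. In 2 a call stood on one side of the turn, both for OL enrichment of Aldh1l1 in naive cord, at -1.41 without both libraries of naive pool 3 and -1.21 without OL library 6, where leaving out 1 library gave -1.21 to 0.61 in all. The counts of genes called that moved by more than 1.5 times follow. The share of all tested genes also moves with the fit, as from 37.2% to 50.7% for total RNA alone on dpi 2. It is not given beside each count here, so these counts are not read as results about the 10 genes. Without naive pool 3 they were 6 for naive enrichment, 7 for the OL change on dpi 2, 7 on dpi 42 and 4 between dpi 2 and dpi 10. Library sizes alone gave 3 for enrichment on dpi 2 and 7 on dpi 10, and moved the median of all genes in naive enrichment from -0.27 to -0.78, with 2448 genes up and 7575 down against 4283 and 5237. A fit of only the groups compared gave 7 for enrichment on dpi 10, 9, 8 and 7 for total RNA on dpi 2, 10 and 42, 7 and 1 for its later steps, and 0 for OL between dpi 10 and dpi 42. Fits of 12 libraries of the same kind, chosen after seeing the data, gave 9, 6 and 7 for total RNA against naive, 6 and 1 for its later steps, and 1 and 0 for those of OL. DESeq2 gave 1 for differential enrichment on dpi 42, as did leaving out pool 5 of dpi 2. Without the 2 libraries of dpi 42 with conflicting labels, 0 were called in OL between dpi 10 and dpi 42.

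With tissue pool as replicate block, 3 genes were called for enrichment on dpi 2, and counts of the other enrichment comparisons stayed within 1.5 times. Sample numbers across times mark no shared animal. A replicate block by sample number gave 8 for OL on dpi 2, and 9 and 8 for total RNA on dpi 2 and dpi 10 and 9 between them. Shares of all tested genes are not given beside the counts of this paragraph, and the counts describe moves between fits only. Leaving out 1 library gave 1 to 7 for naive enrichment, 1 to 8 on dpi 2, 1 to 3 on dpi 10, 4 to 7 for the OL change on dpi 2, 2 to 7 on dpi 42, 0 to 1 for differential enrichment on dpi 2 and on dpi 42, 1 to 3 and 0 to 1 for the later steps of OL, and 0 to 1 for total RNA between dpi 2 and dpi 10. The causes of these moves were not tested. In the model of 24 libraries the SEs of total RNA changes were 0.39 to 0.88 for 9 of the 10 genes, all but Glul.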
